A study of Homo sapiens with 30 samples.

Results

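The genes TP53I11, CEMIP, THBS2, RNF144A, ALPK2, RNASE1 and SSPO were followed because their RNA was high in lineage 35 grown alone or in lineage 03, each a line of cells obtained from the established human breast cancer line MDA-MB-231. They were chosen by their symbols, 7 of the 26475 genes listed, and all 7 were found. The levels in isolated lineage 35 and in lineage 03 are what chose them, so those levels are given below as a description with no test. TP53I11, CEMIP and ALPK2 were high in both lineages. RNF144A stood out in isolated lineage 35, and in lineage 03 its level overlapped that of the group named Pop. THBS2 was high in isolated lineage 35 alone, and RNASE1 and SSPO were high in lineage 03 alone.

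CEMIP, THBS2 and RNASE1 encode proteins of the matrix or the fluid around cells. CEMIP binds hyaluronan, the long sugar polymer of the matrix around cells, and drives its breakdown. THBS2 is a thrombospondin, a matrix glycoprotein that binds cell-surface receptors and inhibits vessel growth. RNASE1 is a secreted ribonuclease known from pancreas and endothelial cells. SSPO is the gene of SCO-spondin, a giant glycoprotein secreted into brain fluid in vertebrates, and whether the human gene makes a protein is annotated differently between sources. The other 3 act inside the cell. TP53I11 was named as a gene induced by p53, RNF144A is a ubiquitin ligase of the RING-between-RING class, and ALPK2 belongs to the atypical alpha-kinase family. MDA-MB-231 cells are mesenchymal-like breast cancer cells that carry a mutant p53.

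Bulk RNA sequencing covered 30 libraries in 10 groups of 3, deposited as a pair of tables of estimated gene counts that were compared within a table only. The labels call every group wild type and a distinct lineage of MDA-MB-231, and the series design calls the lineages clones. The first table held lineages 22, 35 and 45, each kept on its own ("isolation") for approximately 24 h in RPMI supplemented with 2 mM glutamine and dialyzed serum at 10%, and each sorted by FACS after 15 days in the same medium within a co-culture of 6 members that was passaged every 3 days. The second table held isolation libraries of lineages 03, 10 and 13 and of a group labelled Pop, and what Pop is made of is not given in the sources used here. Co-culture and isolation libraries also differed in culture time, sorting and RNA extraction kit, so none of these can be told apart in a co-culture comparison. The labels do not say whether the 3 replicates were grown as separate cultures, and p-values then measure only the spread between these samples, which may be technical. In bulk RNA, fewer cells making a transcript and less of it per cell cannot be told apart, so a level below may be that of a share of the cells.

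Library totals were 29.8 to 38.8 M counts (first table) and 28.1 to 35.4 M counts (second table). Isolated lineage 35 stood apart from all other groups of its table, with a root mean square difference of 1.03 to 1.22 in log2 CPM (counts per M counts of the library) over 14570 genes, and it lay 1.19 from the libraries labelled lineage 35 from co-culture. Those co-culture libraries lay 0.547 and 0.433 from the co-culture libraries of lineages 22 and 45. Likewise, co-culture libraries of lineage 22 lay 0.794 from isolation of that lineage and 0.496 from lineage 45 co-culture. Those of lineage 45 lay 0.668 from isolation of lineage 45. Whether isolation and co-culture libraries of the same label hold the same cells was not tested for lineage 35, 22 or 45. Of 6 markers of mesenchymal-like breast cancer cells, at least 5 had a mean of 1 CPM or more in every group and none was at 0, with summed levels of 5356 to 9990 CPM, and VIM, the intermediate filament of such cells, was at 2333 CPM or more in every group.

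The promoters of the genes that were high in both lineages (TP53I11, CEMIP and ALPK2), and of THBS2 and RNASE1, which were high in 1 of them, are shown so that the start-proximal sequence can be set beside the levels. Each is the 250 bases before a RefSeq transcript start (GRCh38.p14), read 5′ to 3′ on the gene's strand, with matches to the motifs searched in capitals. They lie at chr11:44951307-44951556 (minus strand, the outermost of 3 TP53I11 entries), chr15:80779120-80779369 (CEMIP, plus), chr18:58629092-58629341 (ALPK2, minus), chr6:169253847-169254096 (THBS2, minus) and chr14:20802845-20803094 (RNASE1, minus, the outer of its 2 entries).
TP53I11: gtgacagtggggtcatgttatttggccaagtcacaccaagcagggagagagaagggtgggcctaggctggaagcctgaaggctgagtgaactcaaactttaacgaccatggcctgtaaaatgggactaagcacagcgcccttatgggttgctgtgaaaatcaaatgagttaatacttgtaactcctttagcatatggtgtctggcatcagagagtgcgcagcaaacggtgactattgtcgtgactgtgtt
CEMIP: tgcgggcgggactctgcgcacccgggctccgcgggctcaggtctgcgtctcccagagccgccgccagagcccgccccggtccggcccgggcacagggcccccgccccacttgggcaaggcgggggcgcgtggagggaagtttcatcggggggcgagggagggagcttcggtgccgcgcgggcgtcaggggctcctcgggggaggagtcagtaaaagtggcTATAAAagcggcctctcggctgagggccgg
ALPK2: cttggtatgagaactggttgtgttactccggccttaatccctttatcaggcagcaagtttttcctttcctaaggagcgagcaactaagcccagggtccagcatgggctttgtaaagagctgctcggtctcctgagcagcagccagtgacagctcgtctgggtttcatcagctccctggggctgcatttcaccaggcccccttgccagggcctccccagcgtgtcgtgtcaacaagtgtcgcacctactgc
THBS2: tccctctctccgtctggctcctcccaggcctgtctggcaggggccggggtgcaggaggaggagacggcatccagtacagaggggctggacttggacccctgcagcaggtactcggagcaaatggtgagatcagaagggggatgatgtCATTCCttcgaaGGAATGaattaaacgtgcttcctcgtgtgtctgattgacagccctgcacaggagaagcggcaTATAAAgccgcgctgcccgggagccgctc
RNASE1: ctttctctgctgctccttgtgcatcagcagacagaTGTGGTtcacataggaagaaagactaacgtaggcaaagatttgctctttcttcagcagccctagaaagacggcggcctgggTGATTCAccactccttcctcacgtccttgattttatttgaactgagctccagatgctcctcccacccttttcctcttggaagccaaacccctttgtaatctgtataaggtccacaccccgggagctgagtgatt

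RefSeq promoters were matched for 6 of the 7 genes, in 10 entries, and none was used for SSPO. The motifs were searched on both strands among 35116 promoters of the same length. A TATA box (TATAAA) was present in CEMIP, 30 bases before the start, and in THBS2, 29 bases before it, against 10.7% of all promoters. THBS2 also held the TEAD motif GGAATG at 103 and 91 bases before its start, 1 copy on each strand, and 11.9% of all promoters held that motif. The outer RNASE1 promoter matched TGANTCA, a loose form of the AP-1 motif with any base at N, at 134 bases before the start. The match read TGATTCA. The same promoter held the RUNX motif TGTGGT at 215 bases before the start. Of all promoters, 6.57% and 11% contain these. None of the 10 entries contained the E-box CACCTG bound by ZEB and SNAI factors (17.5% of all) or the p53 motif (5.57%). The p53 motif was searched as a single copy, which is part of a full p53 element. The 3 genes high in both lineages therefore had no searched motif in common in these windows. The entries held 3 to 36 CG pairs, against a median of 11 over all promoters.

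To say which genes mark a lineage, a gene was counted where its lowest library lay above every library of the other isolated groups of the table, its mean was at least 5 CPM and its mean log2 CPM (prior count of 2) exceeded that of each other group by at least 3, which is 8-fold. The smallest of these differences is called its margin. By this definition 9 of 26447 genes (0.0340%) marked isolated lineage 35, among them THBS2, RNF144A and ALPK2. In lineage 03 the count was 25 genes (0.0945%), among them TP53I11, RNASE1 and SSPO. None of the genes, and so none of the 7, marked both lineages at 8-fold (0%).

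At 4-fold, 30 genes marked lineage 35 (0.113%) and 65 marked lineage 03 (0.246%). The 4 genes in both lists (0.0151%) were TP53I11, ALPK2, CEMIP and NEDD9, a docking protein of focal adhesions. These 4 are 13.3% of the first list and 6.15% of the second. TP53I11 had a margin of 7.09-fold in lineage 35 and 8.88-fold in lineage 03. ALPK2 had margins of 21.8-fold and 6.44-fold, and CEMIP of 5.01-fold and 4.23-fold. So TP53I11, at 7.09-fold, missed the 8-fold minimum in lineage 35, and ALPK2, at 6.44-fold, missed it in lineage 03. The level minimum lay close by, since ALPK2 was at 5.54 CPM in isolated lineage 35 and RNF144A at 5.59 CPM in lineage 03.

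**Figure D1:**
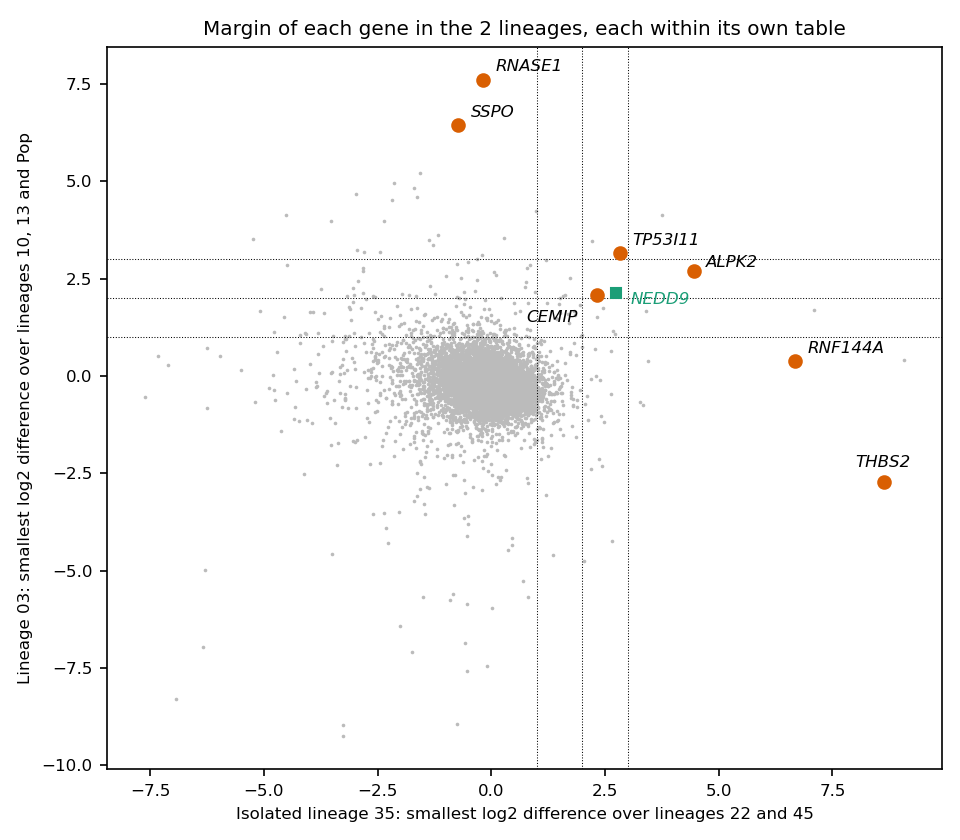
Margin of each of 10966 genes with at least 5 CPM in isolated lineage 35 or lineage 03: the smallest log2 CPM difference of isolated lineage 35 over lineages 22 and 45 (horizontal axis) and of lineage 03 over lineages 10, 13 and Pop (vertical axis). Orange points are the 7 genes, the green square is NEDD9, grey points are other genes, and dotted lines stand at log2 differences of 1, 2 and 3; TP53I11, ALPK2, CEMIP and NEDD9 lie above 2 on both axes.

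TP53I11, a membrane protein gene at chromosome 11, 44885903 to 44951306 (GENCODE 29, GRCh38), was at 22.2, 25.2 and 28.6 CPM in the libraries of isolated lineage 35. Isolated lineage 22 followed at 3.70, 3.37 and 3.45 CPM, and isolated lineage 45 at 0.504, 0.405 and 0.376 CPM. The 3 isolated lineages thus formed separate steps with no overlap. The mean of lineage 35, 25.3 ± 3.17 CPM (SD, n = 3), was 7.22-fold that of lineage 22 and 59.1-fold that of lineage 45. In the libraries labelled lineage 35 from co-culture TP53I11 was at 0.238, 0.888 and 0.835 CPM, 38.7-fold below isolation.

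In the second table TP53I11 was at 54.8, 63.3 and 59.3 CPM in lineage 03 and at 5.90, 7.12 and 6.81 CPM in Pop. Lineages 10 and 13 were far lower, between 0.200 and 0.595 CPM, and they overlapped each other. The mean of lineage 03, 59.1 ± 4.26 CPM (SD, n = 3), was 8.94-fold that of Pop, 123-fold that of lineage 10 and 201-fold that of lineage 13.

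CEMIP (chromosome 15, 80779343 to 80951776) was measured in every group, and its margin was the smallest of the 3 genes high in both lineages. Its libraries stood at 217, 190.1 and 145 CPM in isolated lineage 35, at 43.4, 34.2 and 31.9 CPM in isolated lineage 22 and at 12.02, 9.51 and 6.99 CPM in isolated lineage 45. The order was 35, then 22, then 45, without overlap. The mean in lineage 35 of 184 ± 36.2 CPM (SD, n = 3) was 5.04-fold that of lineage 22 and 19.4-fold that of lineage 45. From co-culture all 9 libraries lay between 2.43 and 6.93 CPM, and those labelled lineage 35, at 3.93 ± 0.953 CPM (SD, n = 3), were 46.9-fold below isolation.

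Lineage 03 had the highest CEMIP levels of the second table, at 926, 736 and 599 CPM. Pop was at 117, 201 and 231 CPM, lineage 10 at 60.2, 83.9 and 62.0 CPM and lineage 13 at 70.8, 70.3 and 39.1 CPM. Pop thus lay between lineage 03 and the other 2 lineages, which overlapped. The mean in lineage 03, 754 ± 164 CPM (SD, n = 3), was 4.13-fold that of Pop, 11.0-fold that of lineage 10 and 12.5-fold that of lineage 13.

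ALPK2 (chromosome 18, 58481247 to 58628957) was close to the detection limit of the first table outside isolated lineage 35. There it was at 6.84, 5.71 and 4.08 CPM, while the other 15 libraries lay between 0.0293 and 0.286 CPM. The mean in lineage 35 of 5.54 ± 1.39 CPM (SD, n = 3) was 28.5-fold that of isolated lineage 22, 55.6-fold that of isolated lineage 45 and 41.2-fold that of the libraries labelled lineage 35 from co-culture. In the second table it was at 46.9, 42.7 and 40.4 CPM in lineage 03 and at 7.27, 7.001 and 5.83 CPM in Pop. Lineage 10 (0.416 to 0.871 CPM) and lineage 13 (0.172 to 0.233 CPM) lay below both. The mean in lineage 03, 43.3 ± 3.27 CPM (SD, n = 3), was 6.47-fold that of Pop, 74.2-fold that of lineage 10 and 208-fold that of lineage 13.

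**Figure D2:**
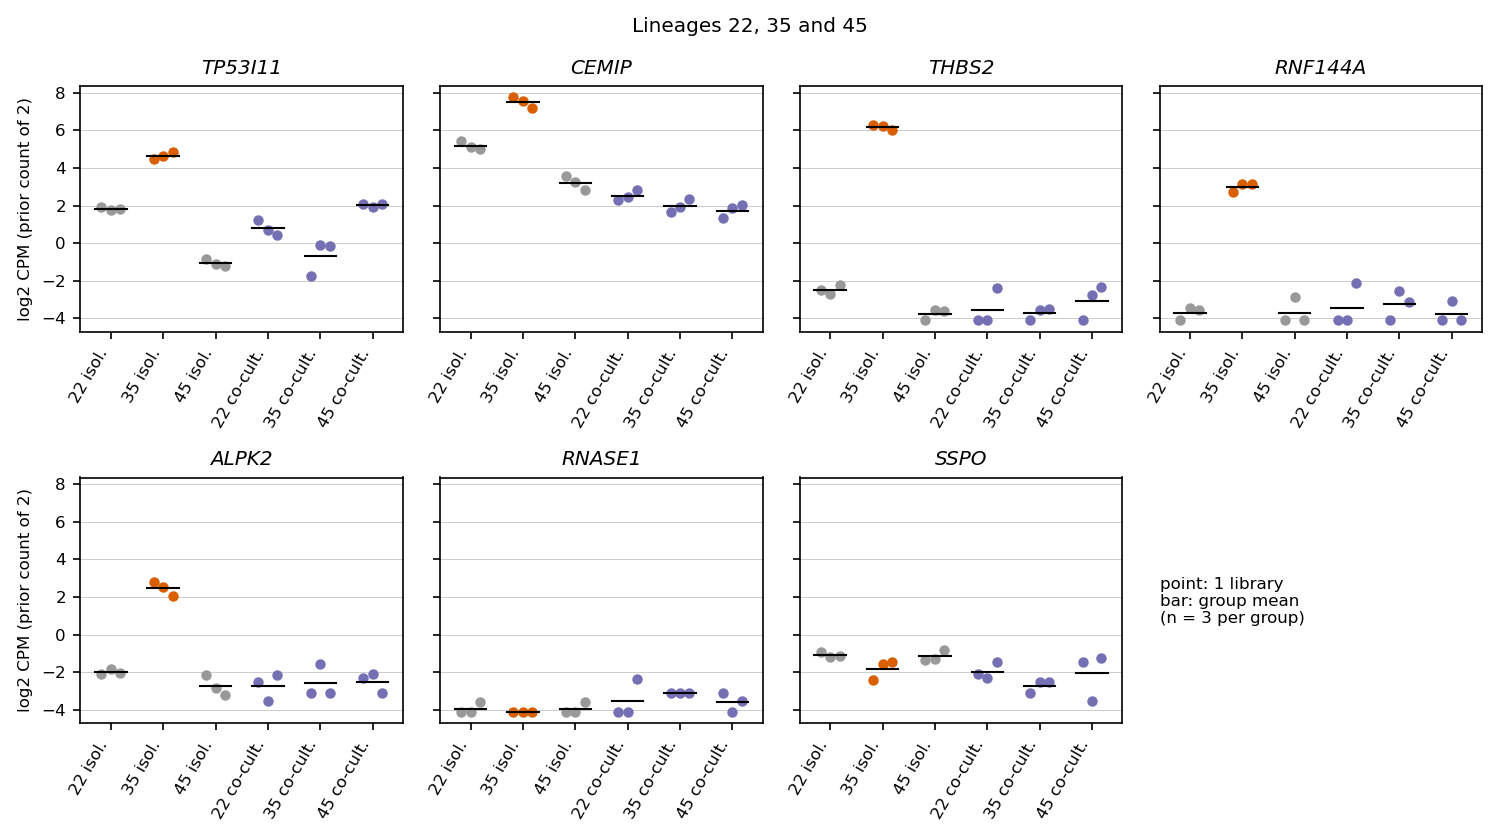
Log2 CPM (prior count of 2) of the 7 genes in the 18 libraries of lineages 22, 35 and 45 in isolation (isol.) and from co-culture (co-cult.); points are libraries and bars are group means (n = 3). Isolated lineage 35 (orange) lies above all other libraries for TP53I11, CEMIP, THBS2, RNF144A and ALPK2, and RNASE1 and SSPO stay below 0 in every library.

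RNF144A (chromosome 2, 6917392 to 7068286), a ligase that marks the DNA repair kinase DNA-PKcs for degradation, was at 6.42, 8.64 and 8.77 CPM in isolated lineage 35. In the other 15 libraries of the first table it did not exceed 0.168 CPM, and the summed counts were 2 in isolated lineage 22 and 3 in isolated lineage 45. The ratio of counts, scaled to library size, was 414 over lineage 22 (95% interval 114 to 3421) and 300.2 over lineage 45 (102 to 1459). Such intervals cover counting error only, since PCR copies were not told apart by molecular identifiers.

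In the second table RNF144A did not separate lineage 03 from Pop. Its levels were 3.73, 5.79 and 7.25 CPM in lineage 03 and 3.32, 4.28 and 4.97 CPM in Pop, and the 2 ranges overlapped. Both groups lay above lineage 13 (0.465 to 0.778 CPM) and lineage 10 (0 to 0.120 CPM). The mean in lineage 03 of 5.59 ± 1.77 CPM (SD, n = 3) was 1.34-fold that of Pop, 8.82-fold that of lineage 13 and 112-fold that of lineage 10. Lineage 03 thus stood apart from lineages 10 and 13 for this gene, and not from Pop.

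THBS2 (chromosome 6, 169215780 to 169254044) had the largest margin in isolated lineage 35 of the 7 genes, 399-fold. It was at 77.5, 74.0 and 63.9 CPM there and at 0.157 CPM or less in the other 15 libraries of the table. The mean of 71.8 ± 7.05 CPM (SD, n = 3) was 581-fold that of isolated lineage 22. Only 2 counts were found in isolated lineage 45 and 2 in the libraries labelled lineage 35 from co-culture, which gave ratios of 4046 (95% interval 1119.6 to 33415) and 3706 (1025 to 30604).

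Lineage 03 was the reverse for THBS2, with 0 counts in all 3 libraries. A floor of 3 counts over the group placed it at least 10.4-fold below lineage 13 (0.203, 0.556 and 0.229 CPM). Pop (0.365, 0.264 and 0.387 CPM) lay at least 10.6-fold above it. The same floor gave 2.21-fold for lineage 10 (0.0595, 0.0600 and 0.0929 CPM), which had only 7 summed counts. These folds leave out the counting error of the other group, so 2.21-fold is not a lower bound. THBS2 thus separated the 2 lineages, as the highest of its table in one and undetected in the other.

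THBS2 is also made by fibroblasts, so 8 fibroblast markers were read in the same libraries. Their summed level was 10.7 to 15.2 CPM in isolated lineage 35, against 18.7 to 22.8 CPM in isolated lineage 22 and 11.1 to 14.3 CPM in isolated lineage 45. In isolated lineage 35, 2 of the 8 had a mean of at least 1 CPM. These were PDGFRB, at 7.30 ± 1.47 CPM against 8.49 ± 1.75 in isolated lineage 22 and 4.99 ± 0.969 in isolated lineage 45, and COL1A1, at 4.91 ± 1.04 CPM against 9.77 ± 0.645 and 6.65 ± 0.590 (SD, n = 3). DCN and POSTN were at 0 in isolated lineage 35, as they were in lineages 22 and 45 from co-culture. The part of such cells in the THBS2 level was not tested.

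RNASE1 (chromosome 14, 20801228 to 20803278) was found in lineage 03 alone. Its libraries there were at 13.0, 15.1 and 11.99 CPM, a mean of 13.3 ± 1.60 CPM (SD, n = 3). Lineages 10 and 13 had 0 counts, and Pop had 1 count over its 3 libraries. A floor of 3 counts placed lineage 03 at least 443-fold above lineage 10 and at least 470.2-fold above lineage 13, and the ratio over Pop was 1347 (95% interval 241 to 53264). In the first table RNASE1 had 15 counts over 18 libraries, none of them in isolated lineage 35, and it did not pass the filter on low counts.

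Endothelial cells make much RNASE1, so 7 endothelial markers were read beside it. Their summed level was 34.3 to 37.2 CPM in lineage 03, 34.6 to 38.2 CPM in lineage 10, 36.2 to 42.4 CPM in lineage 13 and 31.0 to 35.9 CPM in Pop. EGFL7 made up most of each sum, at 34.4 ± 1.32 CPM in lineage 03, and it was the 1 marker of the 7 with a mean of at least 1 CPM there. The others did not move together: PECAM1 was at 0.706 CPM in lineage 03, 3.95 in Pop, 0.140 in lineage 10 and 0.0861 in lineage 13, and KDR at 0.401, 4.01, 3.12 and 1.33 CPM. None of the 7 was at 0 in lineage 03, in lineage 10 or in Pop, and TEK was at 0 in lineage 13. CDH5 was at only 0.0123 CPM in lineage 03. The part of such cells in the RNASE1 level was not tested.

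SSPO (chromosome 7, 149776042 to 149833979) was the other gene of lineage 03 alone, at 30.6, 36.2 and 33.2 CPM. Pop was at 0.213, 0.381 and 0.416 CPM, lineage 10 at 0.0595, 0.0600 and 0.0619 CPM and lineage 13 at 0.0286 CPM or less. The mean in lineage 03, 33.3 ± 2.81 CPM (SD, n = 3), was 99.0-fold that of Pop and 551-fold that of lineage 10. Over lineage 13, which had 2 counts, the ratio was 1766 (95% interval 489 to 14590.4). In the first table it was low in all 6 groups, between 0.0293 and 0.501 CPM, and isolated lineage 35 (0.129, 0.277 and 0.311 CPM) was not the highest. RefSeq lists this human gene as a transcribed pseudogene and GENCODE 29 lists it as protein-coding. Its interval overlaps that of the neighbour ZNF467, and whether the counting used strand is not given in the sources used here; ZNF467 itself was 1.01-fold in lineage 03 over the nearest other group.

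**Figure D3:**
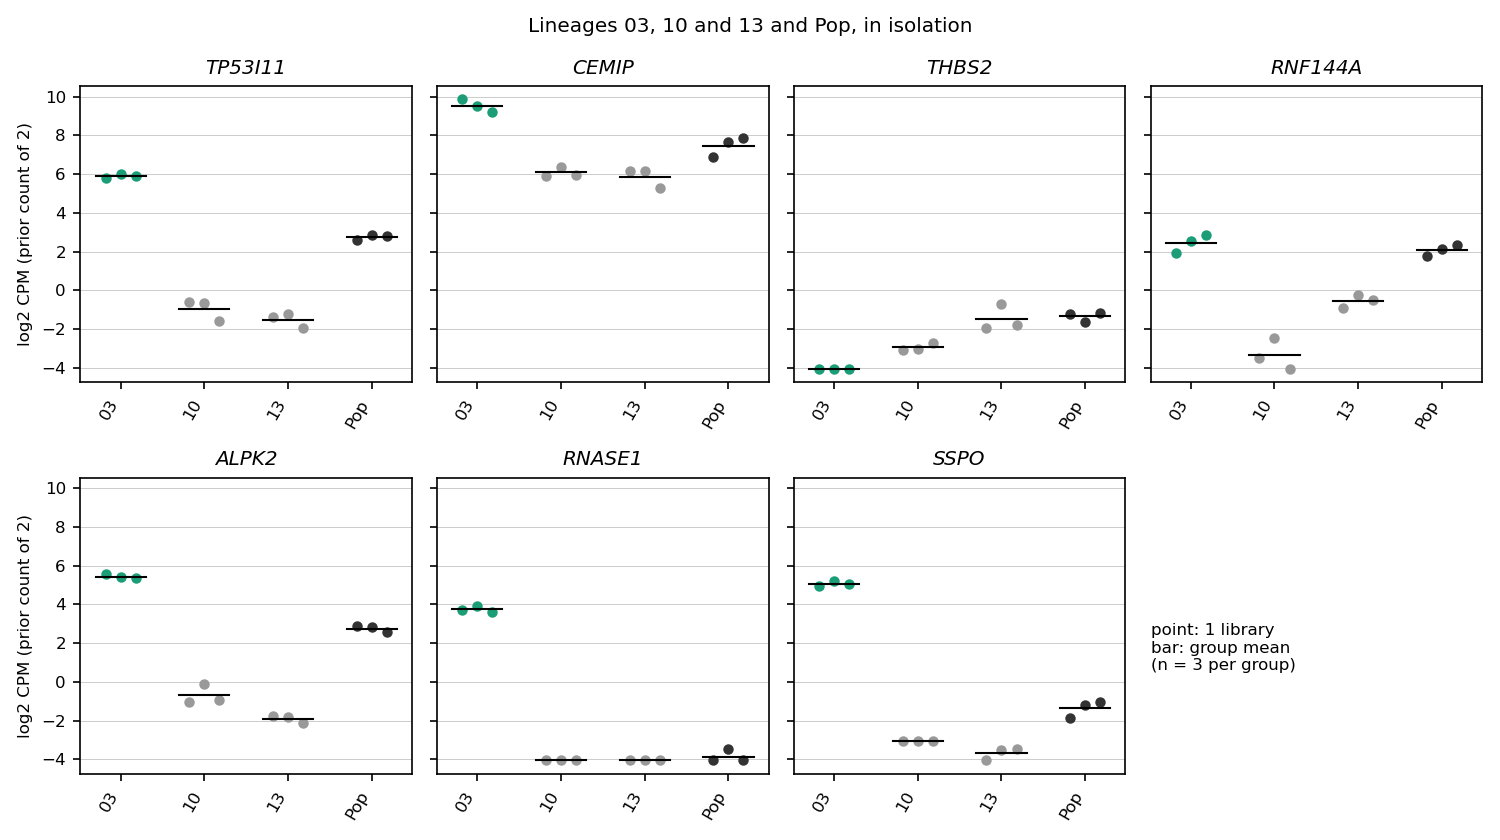
Log2 CPM (prior count of 2) of the 7 genes in the 12 libraries of lineages 03, 10 and 13 and Pop in isolation; points are libraries and bars are group means (n = 3). Lineage 03 (green) lies above every other library for TP53I11, CEMIP, ALPK2, RNASE1 and SSPO, overlaps Pop for RNF144A and is lowest for THBS2.

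Pop took the second place behind lineage 03 for TP53I11, CEMIP, RNF144A, ALPK2 and SSPO, by group means. For these 5 genes all 3 Pop libraries lay above all libraries of lineages 10 and 13. Lineage 22 took the second place behind lineage 35 among the isolated groups of the first table for TP53I11, CEMIP, THBS2 and ALPK2.

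Lineages 22 and 45 in isolation were compared next. The genes were chosen by high levels in other groups, and not by a difference between these lineages. The groups those levels were judged against are not given and may include these lineages. TP53I11 and CEMIP were higher in lineage 22 (edgeR quasi-likelihood test, BH-adjusted p under 0.05), where 38.4% of 14570 genes were called in either direction, 18.6% higher and 19.8% lower. TP53I11 was 8.16-fold higher in lineage 22 (log2 3.03 ± 0.28 SE, adjusted p = 7.43e-08, n = 3 per group, edgeR). CEMIP was 3.85-fold higher (log2 1.95 ± 0.22 SE, adjusted p = 3.67e-06, edgeR). SSPO did not pass (log2 0.06 ± 0.43 SE, edgeR adjusted p = 0.927). These 3 genes passed the filter on low counts also without the libraries of isolated lineage 35. THBS2, RNF144A and ALPK2 passed it only through that group, which chose them, and had at most 10 counts in any other library, so no test of them is read in this table. Their summed counts in lineages 22 and 45 were 13 and 2 for THBS2, 2 and 3 for RNF144A and 20 and 11 for ALPK2.

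Between isolation and co-culture libraries TP53I11 differed in opposite directions in lineages 22 and 45, and CEMIP was lower from co-culture in both. Culture time, sorting and RNA kit differed along with co-culture. In the libraries of lineage 22 TP53I11 went from 3.51 ± 0.174 CPM in isolation to 2.30, 1.55 and 1.28 CPM from co-culture, 2.04-fold lower (log2 -1.03 ± 0.23 SE, edgeR adjusted p = 0.00106). In lineage 45 it went from 0.428 ± 0.0674 CPM to 4.16, 3.74 and 4.10 CPM, 9.31-fold higher (log2 3.22 ± 0.28 SE, edgeR adjusted p = 5.82e-08). The difference between these responses, lineage 22 minus lineage 45, was log2 -4.25 ± 0.37 SE (interaction term, edgeR adjusted p = 2.45e-07). The libraries of each group did not overlap those of the group it was compared with.

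CEMIP fell 6.36-fold in lineage 22, from 36.5 ± 6.07 CPM to 4.91, 5.45 and 6.93 CPM (log2 -2.67 ± 0.23 SE, edgeR adjusted p = 1.99e-07). In lineage 45 it fell 2.84-fold, from 9.50 ± 2.52 CPM to 2.43, 3.57 and 4.02 CPM (log2 -1.50 ± 0.25 SE, edgeR adjusted p = 0.000225). The responses differed by log2 -1.16 ± 0.34 SE (interaction term, edgeR adjusted p = 0.0277), a call lost in 8 of 24 alternatives, where the adjusted p ran from 0.0105 to 0.0768. Leaving out lineage 22 co-culture replicate 1 or 2, lineage 22 isolation replicate 1, lineage 45 co-culture replicate 2 or 3, or lineage 45 isolation replicate 2 or 3 each ended it (log2 -1.16 to -0.98).

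TP53I11 and CEMIP were thus both lower in lineage 22 with co-culture, where 56.9% of all genes were called in either direction, 27.0% higher and 30.0% lower. In lineage 45, where 41.8% of all genes were called, 18.6% higher and 23.2% lower, TP53I11 was higher and CEMIP lower. The responses of both differed, each lower in lineage 22 than in lineage 45, against 17.3% of all genes in either direction, 8.08% lower and 9.25% higher. These comparisons share libraries with each other and with that of lineages 22 and 45 in isolation. SSPO, at 20 to 45 counts a group, had log2 changes of -1.02 ± 0.49 SE in lineage 22 (edgeR adjusted p = 0.0843) and -0.73 ± 0.47 SE in lineage 45 (edgeR adjusted p = 0.221). In lineage 22 it passed without lineage 45 co-culture replicate 2 (edgeR adjusted p = 0.0301) and in a fit of the compared groups alone (edgeR adjusted p = 0.0441), with a range over alternatives of 0.0301 to 0.226. From co-culture THBS2 had 4 summed counts in lineage 22 and 8 in lineage 45, RNF144A 5 and 2, and ALPK2 10 and 13.

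**Figure D4:**
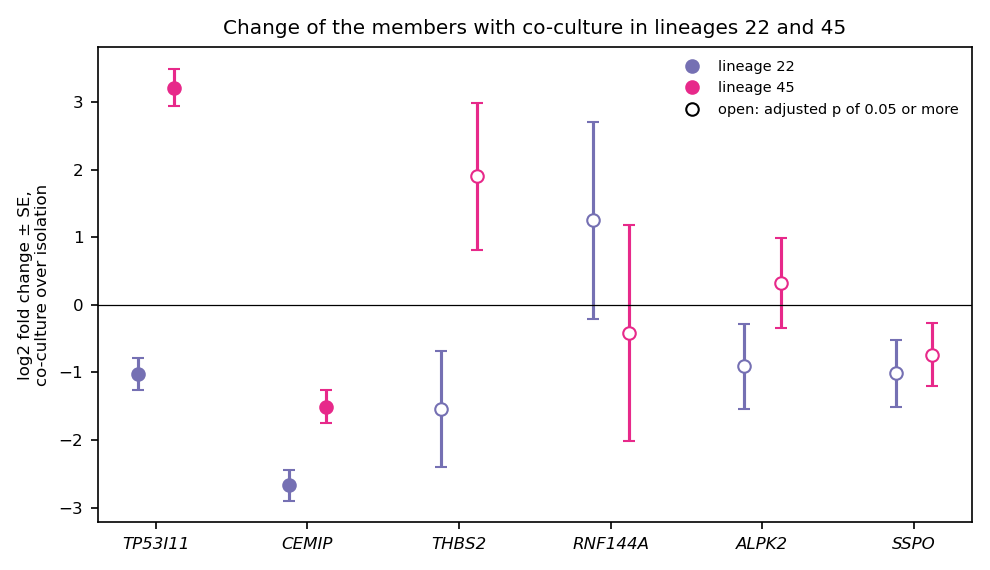
Log2 fold change of co-culture over isolation in lineages 22 and 45 for the 6 genes tested (edgeR estimate, error bars are SE, n = 3 per group); filled points passed an adjusted p of 0.05 and open points did not. TP53I11 lies at -1.03 in lineage 22 and at 3.22 in lineage 45, and CEMIP lies below 0 in both. THBS2, RNF144A and ALPK2 have at most 20 summed counts in each of these groups. They passed the filter on low counts only through another group of the table, which chose them. Their points are drawn for completeness, and no test of them is read, whether filled or open.

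Between lineages 22 and 45 from co-culture, TP53I11 was lower in lineage 22, the opposite of isolation. The fold was 2.32 (log2 -1.22 ± 0.23 SE, edgeR adjusted p = 0.000682), and the libraries did not overlap. CEMIP was 1.72-fold higher in lineage 22 (log2 0.78 ± 0.26 SE, edgeR adjusted p = 0.0398). Replicate numbers may pair these 2 groups, and with the replicate number as a block the CEMIP difference no longer passed (log2 0.78, edgeR adjusted p = 0.0611). It was also lost without lineage 22 co-culture replicate 2 or 3, lineage 45 co-culture replicate 1 or 2 or lineage 45 isolation replicate 2, and over 25 alternatives the adjusted p ran from 0.000951 to 0.164. In this comparison 25.2% of all genes were called.

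Lineages 10 and 13 were compared for the 5 genes that passed the filter also without the libraries of lineage 03, and 3 of them differed, against 34.6% of 14638 genes called (edgeR). RNF144A was 11.8-fold lower in lineage 10 (log2 -3.56 ± 0.63 SE, edgeR adjusted p = 0.000683), at 5 summed counts against 67. THBS2 was 4.51-fold lower in lineage 10 (log2 -2.17 ± 0.55 SE, edgeR adjusted p = 0.0094, 7 against 35 counts), and ALPK2 was 2.77-fold higher (log2 1.47 ± 0.34 SE, edgeR adjusted p = 0.00411, 58 against 22 counts). TP53I11 (edgeR adjusted p = 0.103) and CEMIP (0.631) did not pass the test. Without lineage 10 replicate 3, TP53I11 passed (log2 0.98, edgeR adjusted p = 0.0213, range over alternatives 0.0213 to 0.314). RNASE1 (0 counts in both) and SSPO (6 and 2 counts) passed the filter only through lineage 03, and no test of them is read here.

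Genes of the same families or pathways were then counted, from 6 lists that hold none of the 7 genes. A gene was counted as higher or lower in a lineage where the edgeR test called it the same way against each other isolated group. In isolated lineage 35, 18.8% of all genes tested were higher and 22.0% lower, and in lineage 03 these shares were 11.7% and 11.0%. Over the lists, 7 genes were higher and 13 lower of 54 in isolated lineage 35, and 13 were higher and 4 lower of 54 in lineage 03. The 7 fell to 4 without lineage 35 isolation replicate 2 and to 4 with no filter on low counts.

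Of 10 genes of hyaluronan synthesis, breakdown and binding tested, 2 were higher and 3 lower in isolated lineage 35. HAS2, which makes hyaluronan, was at least 3.56-fold higher over both other lineages (edgeR adjusted p up to 1.48e-05) at 12.2 ± 3.70 CPM (SD, n = 3), and HMMR, a hyaluronan receptor, was 1.34-fold higher. HAS3 was 2.19-fold lower, UGDH, which makes a sugar precursor of hyaluronan, 1.63-fold lower and HAPLN3, a link protein, 1.42-fold lower. In lineage 03, CD44, the main hyaluronan receptor, was at least 2.18-fold higher over every other group (edgeR adjusted p up to 1.31e-06) at 2744 ± 406 CPM (SD, n = 3), and none was lower. CD44 did not pass in isolated lineage 35, where its log2 differences were -0.04 and 0.11 (edgeR adjusted p up to 0.682).

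Of 8 thrombospondins, spondins, receptors and partners tested, 1 was higher and 4 were lower in isolated lineage 35. THBS1, the paralogue of THBS2, was at least 3.37-fold higher there (edgeR adjusted p up to 7.46e-12) at 7475 ± 773 CPM (SD, n = 3). ADAMTS1, a protease that cleaves thrombospondins, was at least 58.4-fold lower, LRP1, a receptor that takes up thrombospondins, 2.50-fold lower and the thrombospondin receptor CD47 1.47-fold lower. In lineage 03, where THBS2 was undetected, CD47 (1.73-fold), SPON2 (1.82-fold) and THBS3 (1.27-fold) were higher and none was lower.

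Among 12 other RING-between-RING ligases 2 were higher and 1 lower in each lineage. In isolated lineage 35 these were CUL9 (1.72-fold), ARIH1 (1.26-fold) and, lower, RNF31 (1.87-fold). In lineage 03 they were RNF19A (1.49-fold), RNF19B (1.399-fold) and, lower, RNF144B (2.14-fold), the closest relative of RNF144A. Of 4 other alpha kinases, EEF2K (1.14-fold) and TRPM7 (1.29-fold) were higher in isolated lineage 35 and none was called in lineage 03.

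From the ribonuclease A list 3 genes were tested, RNASE4, ANG and the inhibitor RNH1. In isolated lineage 35 RNASE4 was 2.58-fold lower and ANG, at only 0.409 CPM, 3.01-fold lower. RNASE4 was 1.95-fold higher in lineage 03. Of 17 genes known to be induced by p53, none was higher and 3 were lower in isolated lineage 35. GDF15, a secreted stress factor, was at least 11.7-fold lower, and XPC (1.69-fold) and TP53I3 (1.51-fold) were the others. In lineage 03, 6 of the 17 were higher, among them TP53INP1 (1.65-fold), RRM2B (1.60-fold) and BBC3 (1.65-fold), and MDM2 (1.48-fold), TP53I3 (1.51-fold) and FDXR (1.61-fold) were lower. All folds of related genes are the smallest over the other isolated groups.

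The genes next to each member on its chromosome were read for levels raised in the same lineage, 3 on each side or 42 in all (RefSeq, GRCh38.p14, genes tested in either table). With a minimum of 2-fold, 4 neighbours marked isolated lineage 35, against 1.46% of the 15032 genes tested in either table. They were ARNT2 next to CEMIP (2.46-fold, 375 kb) and, next to ALPK2 at 190.2 to 937 kb, FECH (2.17-fold), ATP8B1 (3.48-fold) and MALT1 (3.42-fold). Distances here run between the lower genome coordinates of the genes, whatever their strand, and are not gaps or distances between transcript starts. Lineage 03 was marked by 1 neighbour, against 1.63% of the same genes. It was NDRG2, 216 kb from RNASE1, at 28.3-fold and 6.48 CPM. None of the 42 marked both lineages. Next to TP53I11, CD82, at 368 kb by lower coordinates, had margins of 1.91-fold in lineage 35 and 1.69-fold in lineage 03 with no overlap of libraries.

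For each gene, those most like it were taken as the genes with the highest correlation of log2 CPM, by the lower of the values over 18 and over 12 libraries, among 11020 genes with at least 5 CPM in a group of each table. These libraries are replicates within groups, so the correlations describe a pattern over 6 and 4 groups. TP53I11 was most like CYP24A1 (r = 0.84 over 18 libraries and 0.88 over 12), LITAF (0.84 and 0.97) and NEDD9 (0.83 and 0.87). CYP24A1, which degrades active vitamin D, was at 31.5 ± 3.62 CPM in isolated lineage 35, 5.97 ± 0.574 in isolated lineage 22 and 14.7 ± 4.12 in lineage 03, where Pop, at 15.5 ± 2.81 CPM (SD, n = 3), did not lie lower.

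CEMIP was most like FLG (r = 0.98 and 0.95), RHBDL2 (0.93 and 0.93) and FBXO32 (0.97 and 0.91). FLG, which encodes filaggrin, was at 376 ± 80.2 CPM in isolated lineage 35, 93.2 ± 8.26 in isolated lineage 22 and 38.8 ± 4.77 in isolated lineage 45, and at 253 ± 32.8 CPM in lineage 03 against 165 ± 71.6 in Pop (SD, n = 3). ALPK2 was most like the noncoding RNA SNHG18 (r = 0.95 and 0.96), the glycine transporter SLC6A9 (0.88 and 0.90) and the ubiquitin ligase RNF43 (0.88 and 0.91). RNF144A was most like NEDD9 (0.88 and 0.93), MAP2K1 (0.91 and 0.87) and POMGNT1 (0.84 and 0.89). MAP2K1 varied little, at 120 ± 1.10 CPM in isolated lineage 35 and 87.5 ± 5.56 in isolated lineage 22 (SD, n = 3). Outside isolated lineage 35, RNF144A had at most 5 and ALPK2 at most 10 counts in any library of the first table. Their correlations there rest largely on that group. THBS2, RNASE1 and SSPO were near 0 in 1 table, so their correlations there are of a few counts and are not listed.

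At 2-fold, 219 genes marked isolated lineage 35 (0.828% of all 26447) and 245 marked lineage 03 (0.926%). The 18 genes in both lists (0.0681%, which is 8.22% of the first and 7.35% of the second) included the same 3 of the 7 genes, TP53I11, ALPK2 and CEMIP. Of the 15 others, NEDD9 had the largest smaller margin. It was at 65.6 ± 1.88 CPM in isolated lineage 35, 9.82 ± 1.01 in isolated lineage 22 and 8.51 ± 1.54 in the libraries labelled lineage 35 from co-culture, and at 72.5 ± 15.6 CPM in lineage 03 against 16.4 in Pop (n = 3). DAPK2, a death-associated kinase, had margins of 5.49-fold in lineage 35 and 3.35-fold in lineage 03, and ADAMTS9, a matrix protease, of 3.31-fold and 5.69-fold. SNHG18 had margins of 137-fold and 3.22-fold, and PAK6, a p21-activated kinase, of 10.5-fold and 3.19-fold. RARRES2, which encodes chemerin, followed with 2.96-fold and 4.18-fold and the repressor HIC1 with 3.60-fold and 2.94-fold.

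**Figure D5:**
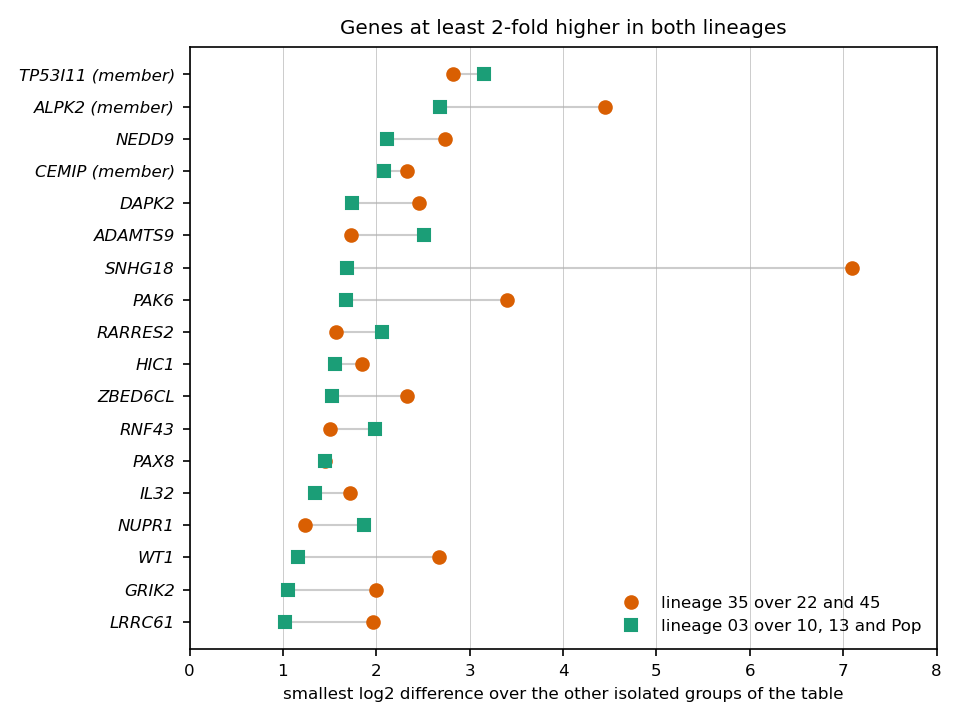
Margins of the 18 genes at least 2-fold higher in both lineages, as the smallest log2 CPM difference of isolated lineage 35 over lineages 22 and 45 (orange circles) and of lineage 03 over lineages 10, 13 and Pop (green squares); members are the genes followed here. TP53I11 has the largest smaller margin of the 18, 7.09-fold or a log2 difference of 2.83.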

How the data were processed

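Total RNA of 30 libraries was sequenced as stranded mRNA with paired 75 nt reads, per the labels' protocols. STAR 2.6.1d and Salmon 1.4.0 with GRCh38 were used, per the submitters' processing notes. The authors deposited estimated counts for each gene, scaled for gene length, in a pair of separate tables; the scaling tool, annotation and strand setting are not given in the sources used here.

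These were rounded. Each table was filtered (filterByExpr), scaled with TMM factors and fitted by robust quasi-likelihood with all its groups in edgeR 4.0.16 under R 4.3.3, with limma 3.58.1. BH adjustment at 0.05 ran over 14570 and 14638 genes. CPM uses TMM library sizes. Standard errors come from the F statistic. Margins use a prior count of 2. Of the gene symbols of the second table, 28 had been turned into dates, which left 26447 symbols for comparison of the lineages. The fit was tested on simulated data.

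The members and the related lists were chosen with earlier results of these data known. The genes named are the members, the 3 most alike genes per member, up to 10 genes marking both lineages by smaller margin, up to 3 called genes per list and direction, and neighbours that mark a lineage. CD82, ZNF467, CD44 in lineage 35 and the genes in the plot beyond the first 10 were added after values were seen.

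Replicate numbers were checked for pairing by correlating deviations of same-numbered libraries from group means. They correlated at 0.36, 0.25 and 0.17 between lineages 22 and 45 from co-culture, and not above 0.1 in all pairs of any other comparison. The chi-square per gene between replicates was 5.00 to 73.3, so no pair looked like a library deposited more than once; this does not show separate cultures. Alternatives were DESeq2 1.42.0, RLE factors, no filter, at least 5 CPM in 3 libraries, fits of the compared groups alone, a replicate block, other marking thresholds and leaving out each library.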

Additional observations from a re-analysis of the deposited data

Results flagged for a closer look

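The co-culture response of TP53I11 differed between lineages 22 and 45. It was lower in all 3 co-culture libraries of lineage 22 and higher in all 3 of lineage 45 than in any isolation library of the same lineage, and the interaction term was log2 -4.25 (edgeR, adjusted p = 2.45e-07, and 4.33e-06 or less in all 24 alternatives run). The response of CEMIP also differed, by log2 -1.16 (edgeR interaction term, adjusted p = 0.0277). CEMIP fell in both lineages and fell further in lineage 22, and this difference missed the threshold in 8 of 24 alternatives. Both comparisons measure co-culture together with culture time, sorting and RNA kit, and their part in the responses was not tested.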

How the results depend on the processing

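Of 817 alternative values for single genes, 781 stayed on the same side of the threshold, 27 lost their call and 9 gained it. Of these, 12 losses and 6 gains were of THBS2 in the first table, with groups of 2 to 13 counts. THBS2 passed the filter there only through isolated lineage 35, so no test of it is read. The genes called kept their direction in all 316 of their alternative values, and 20 values of genes not called changed sign. Of the counts, with no filter on low counts the interaction called 1 gene (2 in the fit reported), lineages 22 and 45 from co-culture 1 (2), and the related genes higher in isolated lineage 35 were 4 (7). The stricter filter left 1 gene called between lineages 10 and 13 (3), since THBS2 and RNF144A did not pass it. A replicate block left 1 gene called between lineages 22 and 45 from co-culture (2). A block in a fit of these groups alone, chosen after seeing the data, called 2. The replicate block also ended the call of THBS2, which is not read, between lineages 22 and 45 in isolation. It moved no other count by over 1.5 times. Genes marking both lineages numbered 4 at 4-fold, 18 at 2-fold and 1 at 8-fold with a level minimum of 1 CPM (ADORA2A). Members marking lineage 35 were 5 at 4-fold and at 2-fold, those marking lineage 03 were 5 and 5, and those marking both were 3 and 3.

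Leaving out each library in turn gave 1 to 3 genes for the interaction, 1 to 2 for lineages 22 and 45 from co-culture, 2 to 3 for these lineages in isolation and for each co-culture response, and 3 to 4 for lineages 10 and 13. Members marking lineage 35 were 2 to 3, those marking lineage 03 always 3 and those marking both always 0, as were genes marking both. Related genes in isolated lineage 35 were 4 to 7 higher, 4 without lineage 35 isolation replicate 2, and 12 to 15 lower, and in lineage 03 they were 11 to 15 higher and 4 to 6 lower. The causes of these shifts were not tested. Low counts limit what can be read of THBS2, RNF144A and ALPK2 in the first table outside isolated lineage 35, and of RNASE1 and SSPO in lineages 10 and 13. These genes are in the counts above although no test of them is read: the 3 genes called between lineages 22 and 45 in isolation include THBS2.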

Other observations

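ADORA2A, which encodes an adenosine receptor, exceeded 8-fold in both lineages without being a member of the set, and it was picked out after its values were seen. Its margin was 13.4-fold in isolated lineage 35 and 17.4-fold in lineage 03, with no overlap of libraries, at means of 2.46 and 8.73 CPM. The first mean lay below the level minimum of 5 CPM. Of the genes that marked both lineages at 2-fold, ZBED6CL, RNF43, PAX8, IL32, NUPR1, WT1, GRIK2 and LRRC61 came last by the smaller of each gene's 2 margins. That smaller margin ran from 2.83-fold for RNF43 (in lineage 35) and 2.87-fold for ZBED6CL (in lineage 03) down to 2.03-fold for LRRC61 (in lineage 03). WT1, the Wilms tumour transcription factor, had margins of 6.36-fold in lineage 35 and 2.24-fold in lineage 03. IL32, a cytokine gene, was at 12.4 ± 2.93 CPM in isolated lineage 35 against 3.66 ± 0.174 in isolated lineage 22 (SD, n = 3). In the second table, whose levels are not compared with the first, it was at 92.0 ± 3.61 CPM in lineage 03 against 36.1 ± 2.63 in lineage 10 (SD, n = 3).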
